A study of Mus musculus with 22 samples.

Results

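Type I interferon response genes are genes that a cell switches on when interferon alpha or interferon beta reaches its receptor. The 36 described here were taken by name from a written list of interferon-stimulated genes, each with an Ensembl identifier in both deposited count tables, and they make up 36 of the 56691 identifiers in those tables. No measured value entered the choice of a gene, although the list was drawn up with earlier results of these data known.

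The pathway begins with interferons made by a cell that senses viral or misplaced nucleic acid. They bind a receptor built of IFNAR1 and IFNAR2, the kinases JAK1 and TYK2 at the receptor pass the signal on by phosphorylation, and a complex that holds IRF9 then binds the interferon-stimulated response element (ISRE) in front of target genes. Microglia, the resident macrophages of the brain, carry this receptor, and interferon-responsive microglia are known from the developing, infected and injured brain.

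RNA was measured in CD11b+ brain cells, which the labels call monocytes, of CF-1 wildtype mice. CF-1 is an outbred strain. CD11b, an integrin subunit that microglia and blood-derived myeloid cells display, was the handle for enrichment on magnetic beads. Each of the 5 groups held 4 animals, all of them wildtype. HIE stands for hypoxic-ischemic encephalopathy, brain injury from too little oxygen around birth. In the study's model of it, dams received LPS, a bacterial cell wall component that activates the immune system, late in pregnancy, and their pups went through a short hypoxia on P6. Controls came from saline-treated dams and stayed in normal air. HIE and control animals were compared at P7 and at P14, and a hypoxia group, whose treatment of the dams was not given in the sources used here, was present at P14 alone.

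Animals that share the first part of their name are called a litter here, and each litter belonged to 1 treatment. The P7 HIE pups came from the litters N5 and N8 and were all labelled male. The P7 controls came from P6H55 and P6H63, with 1 male and 1 female label in each, and their labels give P8 to P11 where the collection protocol gives P7. If these labels hold, age and treatment cannot be told apart in the P7 comparison. At P14 the HIE litters were P4H1 and P6H12, the control litters P4H4 and P6H8 and the hypoxia litters P6H7 and P6H9. P7 and P14 libraries were deposited in separate tables, so that day and table cannot be told apart, and tests compare groups within 1 table. Values per animal are CPM, the usual scaling of read counts to library size, after TMM scaling over all 20 animals. They are listed in a fixed order, which is N5-3, N5-4, N8-3 and N8-4 for P7 HIE and P6H55-7, P6H55-12, P6H63-7 and P6H63-8 for the P7 controls. For P14 it is P4H4-8M, P4H4-7F, P6H8-8F and P6H8-7M for the controls, P4H1-1M, P4H1-6F, P6H12-14F and P6H12-11M for HIE, and P6H7-16M, P6H7-8F, P6H9-14M and P6H9-15F for hypoxia.

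Libraries held 70191584 to 83469067 counts at P7 and 29751540 to 46404123 at P14, and 3 counts, taken as the smallest level told from 0, were worth 0.0359 to 0.101 CPM. All 36 members passed the filter on low counts in every comparison. One group of libraries stood apart. The microglia markers, 11 of 12 of which were matched and none of which was at 0, summed to 1357 to 2079.9 CPM in the P6H63 controls, against 13248 to 15105 CPM in the P6H55 controls, 16925 to 19172 CPM in the P7 HIE pups and 17563 to 23525 CPM in the P14 controls. The 6 astrocyte markers summed to 4038 to 4999 CPM in P6H63 and to 1395 to 1986 CPM in P6H55. Other myeloid markers were low in P6H63 as well. Markers of macrophages at the brain's borders summed to 382 to 494 CPM against 2447 to 3358 CPM in P6H55. Those of monocytes and neutrophils summed to 10.38 to 10.39 against 74.4 to 91.2 CPM. Endothelial markers were higher in P6H63, at 1345 to 1672 against 719 to 724 CPM, and so were neuron markers, at 351 to 490 against 140 to 203 CPM. Fewer cells of a type and less RNA per cell cannot be told apart in such bulk samples. The P7 counts of members and the main P7 differences are therefore also given against each control litter, and the other P7 fold changes are against both litters together.

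The response element that the interferon complex reads shows in front of many members. Its core was searched as GAAANNGAAA or, on the other strand, TTTCNNTTTC, from 250 bases before to 50 after the start of each gene's canonical transcript in GENCODE M39 on GRCm39. It was found in 19 of the 36 members (52.8%), against 3.84% of all 21757 protein-coding windows. At least 2 cores were found in 9 members (25.0%), against 0.294% of all windows. The core of the gamma-activated sequence, TTCNNNGAA, was found in 6 members (16.7%) and in 8.82% of all windows. A match describes the letters and is not a measured binding site. The 200 bases before the start are printed for 6 members with such a core that the results below turn on, 5′ to 3′ on the gene's strand, with the matched cores in capitals. Ifit3 and Ifit3b are shown first because they are near-copies, Zbp1 because all 4 of its cores lie in the printed stretch, and Rsad2, Usp18 and Isg15 because their P14 values were lower in HIE. Overlapping cores run together.
Ifit3, chr19:34560699-34560898, plus strand: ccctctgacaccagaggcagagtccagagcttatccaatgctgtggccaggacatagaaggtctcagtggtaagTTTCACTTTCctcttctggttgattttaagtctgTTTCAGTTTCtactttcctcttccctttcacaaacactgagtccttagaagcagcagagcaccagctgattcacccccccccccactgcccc
Ifit3b, chr19:34585128-34585327, plus strand: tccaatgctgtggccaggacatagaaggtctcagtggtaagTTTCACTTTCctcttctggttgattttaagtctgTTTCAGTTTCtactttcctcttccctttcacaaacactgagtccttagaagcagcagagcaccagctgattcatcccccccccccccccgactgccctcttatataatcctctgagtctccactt
Zbp1, chr2:173060725-173060924, minus strand: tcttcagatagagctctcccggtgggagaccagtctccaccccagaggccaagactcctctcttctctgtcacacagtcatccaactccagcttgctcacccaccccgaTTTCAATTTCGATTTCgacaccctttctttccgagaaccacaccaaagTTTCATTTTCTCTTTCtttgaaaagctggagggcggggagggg
Rsad2, chr12:26506452-26506651, minus strand: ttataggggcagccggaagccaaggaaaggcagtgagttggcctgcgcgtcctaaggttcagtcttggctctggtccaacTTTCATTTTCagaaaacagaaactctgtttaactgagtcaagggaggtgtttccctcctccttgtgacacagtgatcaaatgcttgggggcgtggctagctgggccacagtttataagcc
Usp18, chr6:121222657-121222856, plus strand: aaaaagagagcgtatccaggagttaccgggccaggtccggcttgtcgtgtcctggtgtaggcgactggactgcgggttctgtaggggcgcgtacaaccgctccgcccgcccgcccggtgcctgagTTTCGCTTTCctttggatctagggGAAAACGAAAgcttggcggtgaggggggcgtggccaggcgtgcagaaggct
Isg15, chr4:156285304-156285503, minus strand: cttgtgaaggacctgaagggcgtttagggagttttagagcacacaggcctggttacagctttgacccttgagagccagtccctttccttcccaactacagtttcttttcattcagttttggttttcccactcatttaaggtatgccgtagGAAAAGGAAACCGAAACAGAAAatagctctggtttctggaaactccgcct

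The windows of Mx1, Oasl1, Oasl2, Ifi27l2a, Ifit2, Irf9, Herc6, Xaf1, Parp14, Ifi35 and Cmpk2, among others that appear below, held no such core. Ifit3 and Ifit3b carry the same pair of cores, and the one nearest the start begins at position -92 in Ifit3 and -125 in Ifit3b, counted from the start of the transcript. These genes share reads as well. Of the 75-base words of their transcripts, 36.1% of Ifit3 and 36.9% of Ifit3b occur in the other gene, 46.9% of Oas1a occur in Oas1g, and 18.3% of Herc6 occur in Gm45193, so that the division of counts between these genes is uncertain.

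At P7 most interferon response genes had higher values in HIE than in control pups, but no member passed the main test. The median log2 fold change was 0.46 over the 36 members and -0.08 over the 22517 genes tested, and 31 of 36 members had a positive value. The largest differences were those of Oas3, Ifi27l2a, Mx1, Oas1a, Trim30a, Dhx58 and Zbp1, mostly sensors and antiviral effectors, which were 2.03 to 3.00 times as high as in the controls. These sizes rest in large part on the P6H63 litter with its low microglia markers. The log2 fold changes of these 7 genes were 0.43 to 1.09 against P6H55 alone and 1.36 to 2.71 against P6H63 alone. The quasi-likelihood test of edgeR called 15 of all genes at an adjusted p under 0.05 (0.0666%) and 0 members, and the lowest adjusted p of a member was 0.150. At an unadjusted p under 0.05, 14 members were higher and 0 lower, against 7.89% of all genes that were higher. DESeq2 called 10 members higher and 0 lower, against 4.33% of all genes called higher. The exact and likelihood ratio tests of edgeR called 2 members each, Dhx58 and Zbp1. In 7 members every HIE pup was above every control pup, which was so for 9.22% of all genes, and in 0 members below.

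**Figure D1:**
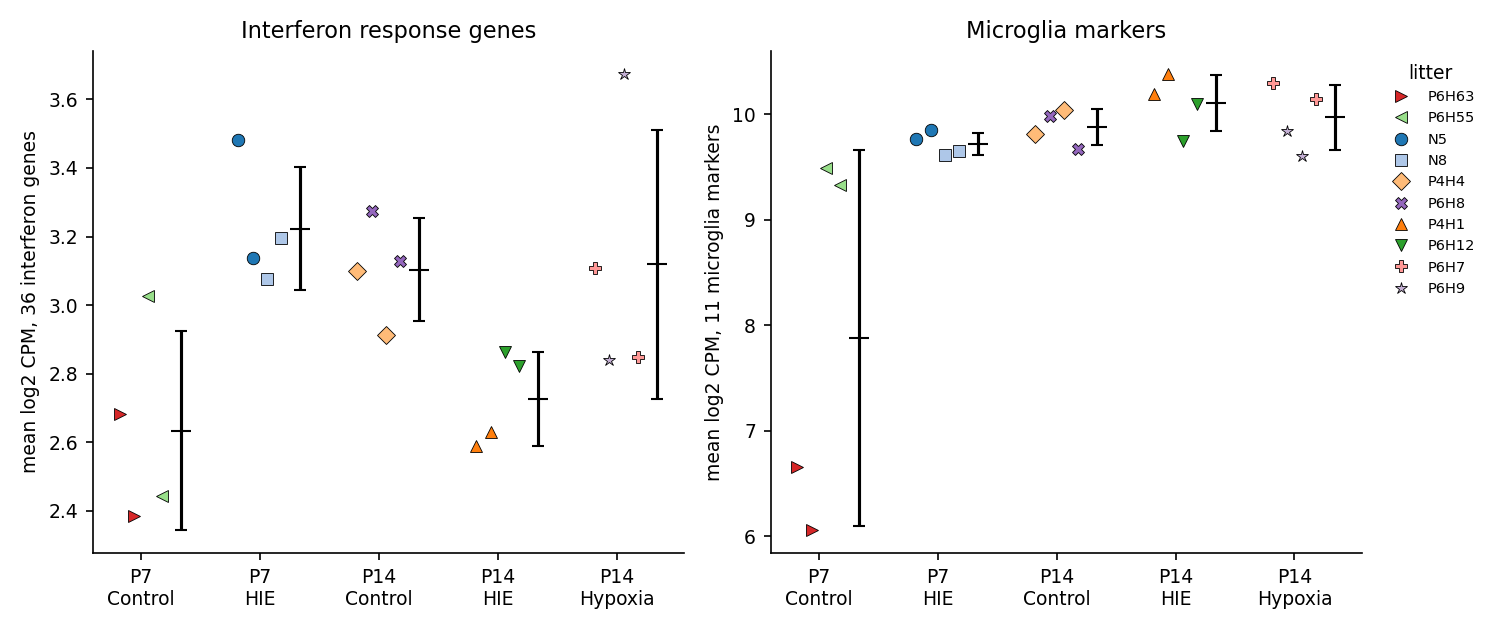
Mean log2 CPM per animal of the 36 interferon response genes (left) and of 11 microglia markers (right) in the 5 groups, with the colour and shape of a point giving the litter and the bar giving the mean and SD of 4 animals. The interferon mean lay between 3.08 and 3.48 in the P7 HIE pups and between 2.38 and 3.03 in the P7 controls, and the microglia markers of the P6H63 controls lay at 6.05 and 6.65.

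The means over the members showed the same order. They were 3.48, 3.14, 3.08 and 3.20 log2 CPM in the P7 HIE pups and 3.03, 2.44, 2.68 and 2.38 in the P7 controls. The highest control pup, P6H55-7, was below the lowest HIE pup, N8-3, and it held the highest control value in 21 of the 36 members. Among the HIE pups N5-3 held the highest value in 29 members.

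Of the sensors of foreign RNA and DNA, Ifih1 (MDA5, a sensor of long double-stranded RNA) was 27.1, 22.96, 23.2 and 23.5 CPM in the HIE pups and 20.6, 15.9, 14.8 and 14.2 CPM in the controls. Dhx58 (LGP2, a partner of MDA5) was 8.64, 6.71, 7.86 and 8.44 CPM against 5.59, 3.96, 2.67 and 2.23 CPM. Neither gene's groups overlapped, and the lowest values were those of the P6H63 controls. The log2 fold changes were 0.55 ± 0.14 for Ifih1 and 1.12 ± 0.29 for Dhx58, each ± standard error, with edgeR adjusted p-values of 0.1500 and 0.1500 and DESeq2 adjusted p-values of 0.00886 and 0.00887. Zbp1, a sensor of left-handed nucleic acid that can trigger cell death, was 2.801, 2.17, 1.66 and 2.27 CPM in HIE and 1.72, 0.868, 0.921 and 0.847 CPM in controls. Here the control pup P6H55-7 lay above the HIE pup N8-3, and the log2 fold change was 1.023 ± 0.30 (adjusted p 0.1500 by edgeR, 0.01499 by DESeq2). The fourth member of this group, Eif2ak2, the kinase PKR that halts translation, had a log2 fold change of 0.14 ± 0.16.

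Among the IFIT proteins, which bind viral RNA, Ifit3 was 5.72, 5.800, 5.59 and 7.32 CPM in HIE and 3.48, 3.46, 5.16 and 2.99 CPM in controls. All 4 HIE pups lay above all 4 controls, with a log2 fold change of 0.68 ± 0.20 (DESeq2 adjusted p 0.0153). Its near-copy Ifit3b was 1.95, 2.45, 1.72 and 1.95 CPM against 1.42, 1.37, 1.59 and 2.0 CPM, and Ifit1 was 2.66, 2.94, 2.71 and 3.35 CPM against 1.53, 1.01, 2.91 and 2.66 CPM. Both overlapped with the controls, and in Ifit1 the P6H63 controls lay at the level of the HIE pups while both P6H55 controls lay below them. The log2 fold changes were 0.33 ± 0.20 for Ifit3b, 0.52 ± 0.33 for Ifit1 and 0.24 ± 0.13 for Ifit2.

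Enzymes among the OAS proteins make the short adenylate chains that activate RNase L. The 5 members of the OAS family all had positive values, with a median log2 fold change of 0.96. Oas1a was 10.1, 4.82, 4.33 and 6.37 CPM in HIE and 4.91, 2.08, 2.62 and 1.64 CPM in controls. Oas3 was 1.78, 0.778, 0.872 and 1.22 CPM and 0.848, 0.246, 0.273 and 0.181 CPM, respectively. In both genes the control P6H55-7 reached into the HIE range, and the log2 fold changes were 1.18 ± 0.40 and 1.58 ± 0.53. Oasl1, which restrains translation of Irf7, was 1.58, 1.199, 1.15 and 1.36 CPM against 0.5005, 0.516, 1.13 and 0.734 CPM without overlap (log2 fold change 0.87 ± 0.30). Oasl2 was 11.7, 8.71, 8.07 and 9.15 CPM against 10.8, 5.07, 10.3 and 9.02 CPM, with overlap and a log2 fold change of 0.09 ± 0.24. DESeq2 called Oas1a, Oas3 and Oasl1 at adjusted p-values of 0.0394, 0.0338 and 0.0332.

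Mx1, a dynamin-like GTPase that traps viral particles, was 4.47, 3.51, 3.31 and 3.82 CPM in HIE and 2.84, 1.61, 0.637 and 0.542 CPM in controls. All HIE pups were above all controls, and the P6H63 controls were the lowest of the P7 animals (log2 fold change 1.42 ± 0.51, DESeq2 adjusted p 0.0444). Rsad2, whose product viperin makes a chain-terminating nucleotide, was 8.68, 6.77, 5.93 and 6.57 CPM against 5.78, 4.11, 5.004 and 5.22 CPM, again without overlap, at a log2 fold change of 0.47 ± 0.17. The neighbouring Cmpk2, a mitochondrial nucleotide kinase, had the lowest log2 fold change of the list at -0.72 ± 0.40.

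Bst2 (tetherin, which holds budding virus at the cell surface) was 17.97, 15.1, 17.1 and 19.4 CPM in HIE and 15.9, 13.7, 11.3 and 9.45 CPM in controls. Herc6, the mouse ligase that attaches ISG15 to proteins, was 20.9, 20.1, 18.5 and 21.1 CPM and 18.8, 16.02, 12.9 and 11.8 CPM, respectively. Each overlapped by 1 control pup, P6H55-7, at log2 fold changes of 0.46 ± 0.17 and 0.43 ± 0.16. Ifi27l2a, a small interferon-induced membrane protein, was 14.9, 8.75, 9.04 and 6.86 CPM in HIE and 7.56, 2.69, 1.97 and 1.57 CPM in controls, with N5-3 the highest of all and a log2 fold change of 1.51 ± 0.52. The ubiquitin-like modifier Isg15 and its protease Usp18 had log2 fold changes of 0.08 ± 0.28 and 0.09 ± 0.36.

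The most abundant members by CPM were Parp14, Trim30a, Slfn5 and Irf9. Parp14, an ADP-ribosyl transferase, was 90.7, 84.1, 86.3 and 86.4 CPM in HIE and 87.6, 64.3, 29.2 and 21.1 CPM in controls. Trim30a was 64.4, 60.2, 58.3 and 59.6 CPM and 51.8, 37.7, 11.7 and 8.903 CPM, and Irf9, the DNA-binding subunit of the interferon complex, was 54.2, 41.3, 41.1 and 44.6 CPM and 45.7, 29.7, 29.1 and 23.5 CPM. In these 3 genes the P6H63 controls were lowest, and Trim30a alone of them had no overlap (log2 fold change 1.13 ± 0.53). Slfn5, a Schlafen family member, was 48.01, 36.97, 40.8 and 47.2 CPM in HIE and 49.9, 39.6, 64.1 and 48.7 CPM in controls and was 1 of 5 members with a negative log2 fold change (-0.23 ± 0.16), with Cmpk2, Ifitm3, Samd9l and Ifi44. Rtp4, Xaf1 and Ifi35 overlapped between the groups. Rtp4 was 12.98, 8.11, 9.0 and 11.4 CPM against 10.9, 5.51, 8.22 and 7.56 CPM, Xaf1 7.300, 5.34, 5.07 and 5.301 CPM against 5.69, 3.52, 7.199 and 4.58 CPM and Ifi35 12.3, 10.5, 10.2 and 10.9 CPM against 10.7, 8.03, 8.96 and 8.12 CPM. Over all members not named with values per animal, the P7 log2 fold changes ran from -0.72 to 0.96.

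**Figure D2:**
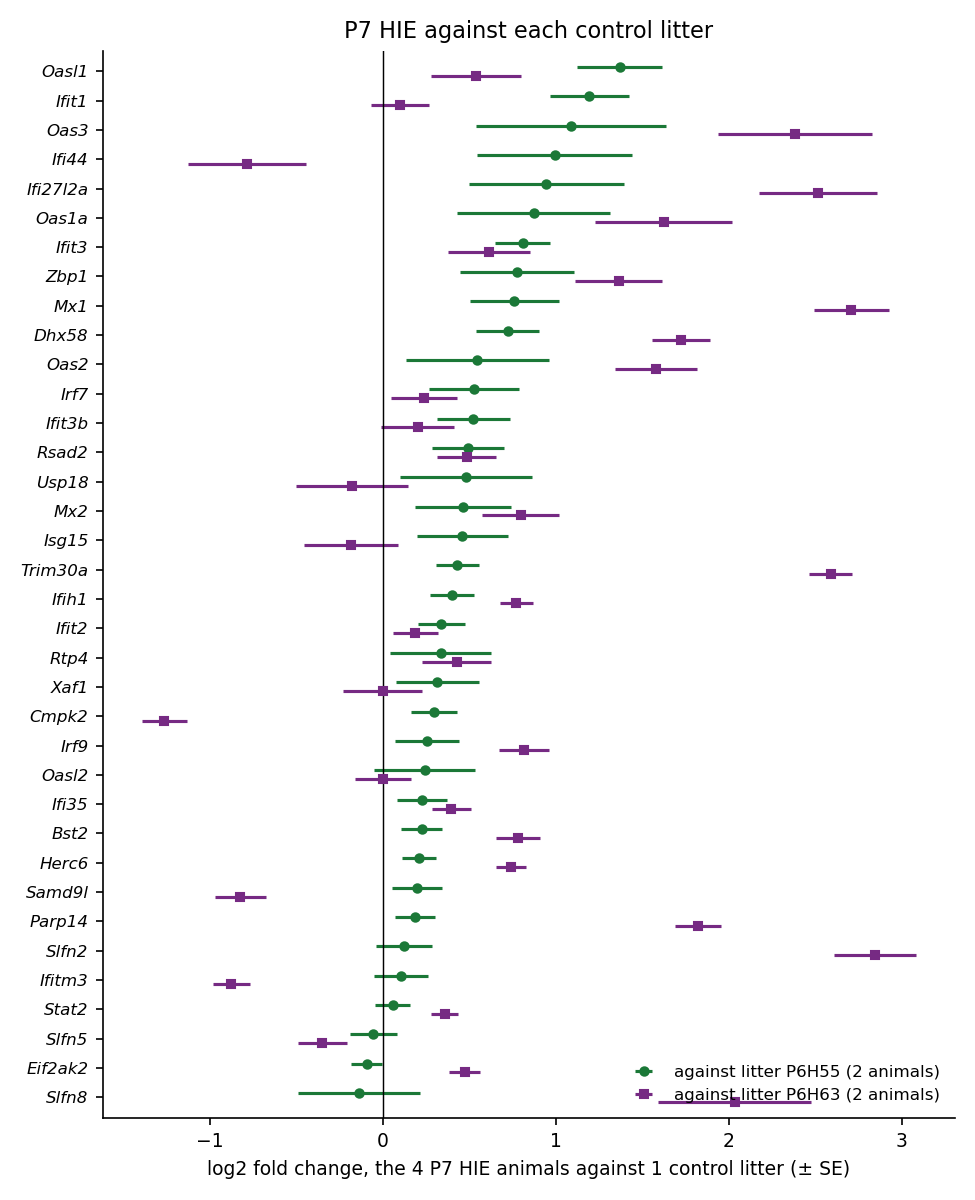
Log2 fold changes (horizontal axis, ± standard error) of the 36 members between the same 4 P7 HIE pups and either 2 controls of litter P6H55 (circles) or 2 controls of litter P6H63 (squares). Against P6H55, 33 of 36 values were positive. Slfn2, Slfn8 and Trim30a lay farthest to the right of their P6H55 value against P6H63, and Ifi44 and Cmpk2 farthest to the left.

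Against the litter P6H55, 33 of 36 members had positive values. The median log2 fold change of the members was 0.42, beside -0.02 over all 23274 genes tested. The litter's microglia markers, with sums of 13248 to 15105 CPM, were nearer to HIE than those of P6H63 but below all HIE sums (16925 to 19172 CPM). Choroid plexus markers summed to 3714 to 4178 CPM in P6H55 and 1118 to 2099 CPM in HIE, endothelial markers to 719 to 724 and 505 to 676 CPM. Sums of the other cell types listed overlapped. The part of these differences was not tested. The quasi-likelihood test called 26 genes (0.112%) and 0 members. At an unadjusted p under 0.05, 11 members were higher and 0 lower, against 7.58% of all genes that were higher. DESeq2 called 5 members, all higher, against 2.38% of all genes called higher. These were Ifit1 (1.21 ± 0.25), Ifit3 (0.82 ± 0.18), Oasl1 (1.39 ± 0.32), Dhx58 (0.73 ± 0.19) and Trim30a (0.44 ± 0.14), each as log2 fold change ± standard error.

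Against the litter P6H63 the quasi-likelihood test called 58.5% of the 23780 genes tested and 23 members, 20 higher and 3 lower, and the members' share has to be read against that background. The 3 lower ones were Cmpk2, Ifitm3 and Samd9l, at -1.26 ± 0.13, -0.88 ± 0.11 and -0.83 ± 0.15. The largest values were those of Slfn2, Mx1, Trim30a and Ifi27l2a, at 2.85 ± 0.24, 2.71 ± 0.22, 2.59 ± 0.13 and 2.51 ± 0.34. Of the 36 members, 25 had a higher HIE mean than either litter's mean. Slfn5 was below both. Eif2ak2 and Slfn8 were above P6H63 alone, and the other 8 were above P6H55 alone. With the microglia-marker score as a covariate, 32 of 36 values were positive, 10 members were higher at an unadjusted p under 0.05, against 6.32% of all genes that were higher, and 0 passed the adjustment. With the sex label as a covariate, 27 were positive and 3 had an unadjusted p under 0.05, 2 of them higher, which is close to the 8.59% of all genes with such a p in that fit. All HIE pups were labelled male, so the HIE effect in that fit rests on the male controls P6H55-7 and P6H63-7. Without the control P6H55-7, 15 members were called higher, against 8.42% of all genes called higher and 24.2% called in either direction. Markers of other cells moved with the group too. At an unadjusted p under 0.05, 5 of 6 astrocyte, 5 of 5 choroid plexus and 6 of 6 endothelial markers were lower in HIE, and their sums in HIE and control pups were 1311 to 1766 and 1395 to 4999 CPM, 1118 to 2099 and 3308 to 8720.3 CPM, and 505 to 676 and 719 to 1672 CPM, with none at 0. Their part in the result was not tested.

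At P14 the order of HIE and control was the other way round for most members. The median log2 fold change was -0.39 over the members and 0.01 over all 20934 genes tested, and 31 of 36 members had a negative value. Rsad2, Ifit3b, Ifit1, Oasl2, Usp18, Ifi27l2a, Zbp1 and Oas1a had the lowest ratios and were at 0.417 to 0.598 of the control level. The quasi-likelihood test called 1 gene (0.00478%) and 0 members, with a lowest adjusted member p of 0.228. At an unadjusted p under 0.05, 13 members were lower and 0 higher, against 6.52% of all genes that were lower. DESeq2 called 6 members lower and 0 higher, against 1.83% of all genes called lower. They were Ifit3b, Oasl2, Rsad2, Oas1a, Usp18 and Ifi27l2a. The exact and likelihood ratio tests of edgeR called Ifit3b alone among the members. In 8 members every HIE animal was below every control, which was so for 2.67% of all genes.

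**Figure D3:**
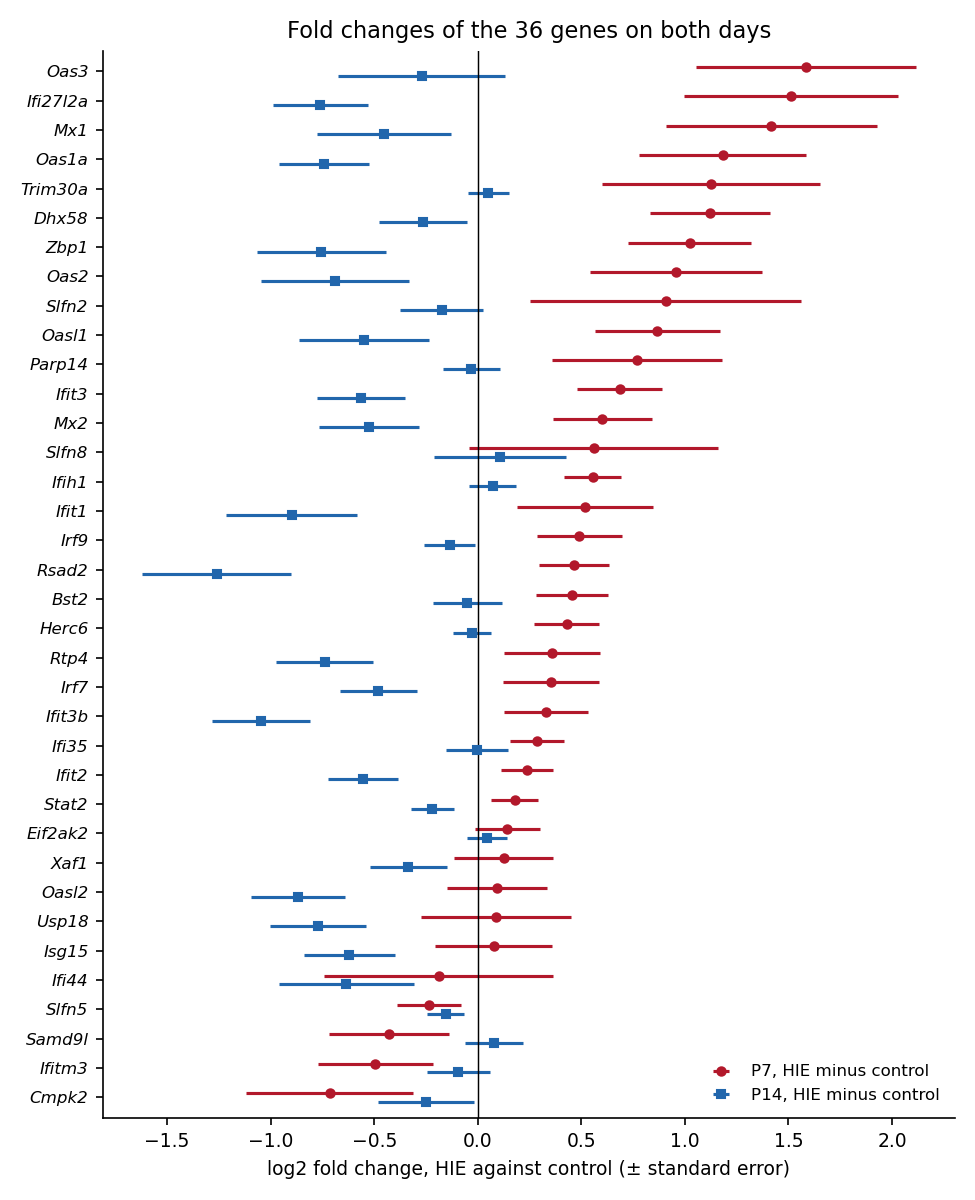
Log2 fold changes (horizontal axis, ± standard error) of HIE against control for the 36 members at P7 (circles) and at P14 (squares), 4 animals against 4 on each day. At P7 31 of 36 values lay above 0 and at P14 5 of 36, and none passed an adjusted p of 0.05 in edgeR's quasi-likelihood test.

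The IFIT genes were low in HIE together, with 4 of 4 at an unadjusted p under 0.05. Ifit3b was 2.86, 2.45, 2.83 and 2.85 CPM in the P14 controls and 1.599, 1.05, 1.64 and 1.14 CPM in the HIE animals. Ifit3 was 7.15, 7.64, 7.48 and 6.11 CPM and 5.13, 3.13, 5.33 and 5.88 CPM, and Ifit1 was 2.22, 2.42, 5.35 and 4.06 CPM and 1.74, 1.55, 2.39 and 1.97 CPM. In Ifit3b and Ifit3 all HIE animals lay below all controls, while in Ifit1 the HIE animal P6H12-14F lay within the control range. The log2 fold changes were -1.05 ± 0.24, -0.56 ± 0.21 and -0.90 ± 0.32, with DESeq2 adjusted p-values of 0.00213, 0.169 and 0.117.

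Of the OAS family, Oasl2 was 8.93, 5.94, 11.6 and 9.35 CPM in controls and 3.76, 4.71, 5.58 and 5.88 CPM in HIE, and Oas1a was 6.46, 3.74, 6.11 and 4.16 CPM and 2.92, 3.17, 2.97 and 3.37 CPM. Neither gene overlapped, at log2 fold changes of -0.87 ± 0.23 and -0.74 ± 0.22 and DESeq2 adjusted p-values of 0.0184 and 0.0386. Oasl1 (0.842, 1.04, 1.023 and 1.22 CPM against 0.447, 0.5904, 0.909 and 0.907 CPM) and Oas3 (0.893, 0.692, 0.672 and 0.576 CPM against 0.235, 0.531, 0.879 and 0.749 CPM) overlapped. Rsad2 was 7.02, 4.91, 2.66 and 9.12 CPM in controls and 1.999, 1.89, 2.88 and 3.25 CPM in HIE. The control P6H8-8F lay among the HIE animals, and the log2 fold change of -1.26 ± 0.36 was the lowest of the list (DESeq2 adjusted p 0.0289). Ifi27l2a was 5.74, 3.24, 6.58 and 5.601 CPM in controls and 2.85, 3.34, 3.21 and 3.298 CPM in HIE, overlapping at the control P4H4-7F (log2 fold change -0.76 ± 0.23).

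Isg15 and Usp18, the modifier and its protease, each had every HIE animal below every control, at log2 fold changes of -0.62 ± 0.22 and -0.77 ± 0.23. The mean of Usp18 was 3.98 ± 0.703 CPM in controls and 2.37 ± 0.498 CPM in HIE (± SD, n = 4), and that of Isg15 2.48 ± 0.4598 CPM and 1.64 ± 0.1202 CPM. Rtp4, a chaperone of membrane receptors, was 8.12, 6.76, 10.8 and 6.27 CPM in controls and 5.17, 3.28, 5.45 and 5.49 CPM in HIE, also without overlap. Further genes, a pair of sensors and a ligase, overlapped with the controls. Ifih1 was 23.03, 20.03, 26.9 and 23.5 CPM against 22.9, 24.5, 27.2 and 25.1 CPM, Dhx58 5.23, 4.31, 6.72 and 4.19 CPM against 3.67, 5.59, 4.0 and 4.05 CPM and Herc6 23.4, 22.8, 25.4 and 24.7 CPM against 22.5, 23.5, 25.5 and 24.2 CPM. Their log2 fold changes were 0.07 ± 0.11, -0.26 ± 0.21 and -0.03 ± 0.09. Zbp1 was 1.25, 1.101, 1.34 and 0.9601 CPM in controls and 0.423, 0.753, 0.606 and 0.994 CPM in HIE, with 1 HIE animal, P6H12-11M, inside the control range (log2 fold change -0.76 ± 0.31).

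Mx1 was 1.76, 1.95, 3.86 and 4.13 CPM in P14 controls and 2.45, 1.56, 2.27 and 2.38 CPM in HIE, and Bst2 was 10.2, 7.92, 12.4 and 9.22 CPM and 9.38, 11.4, 8.0 and 10.2 CPM. Xaf1 was 5.16, 5.79, 6.34 and 4.03 CPM and 4.02, 3.96, 4.82 and 4.35 CPM. The groups of all 3 overlapped. Irf9 (41.9, 38.4, 50.9 and 36.04 CPM against 34.6, 38.7, 38.5 and 42.7 CPM), Parp14 (72.4, 65.4, 95.5 and 96.6 CPM against 71.8, 90.6, 79.3 and 86.1 CPM) and Trim30a (61.9, 53.4, 63.4 and 51.4 CPM against 62.4, 65.9, 57.3 and 56.3 CPM) had log2 fold changes of -0.14, -0.03 and 0.05. Slfn5 was 54.8, 52.9, 61.2 and 50.1 CPM against 51.1, 53.9, 45.9 and 48.6 CPM and Ifi35 11.2, 10.6, 12.6 and 10.98 CPM against 11.9, 14.3, 9.12 and 10.5 CPM, again with overlap.

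**Figure D4:**
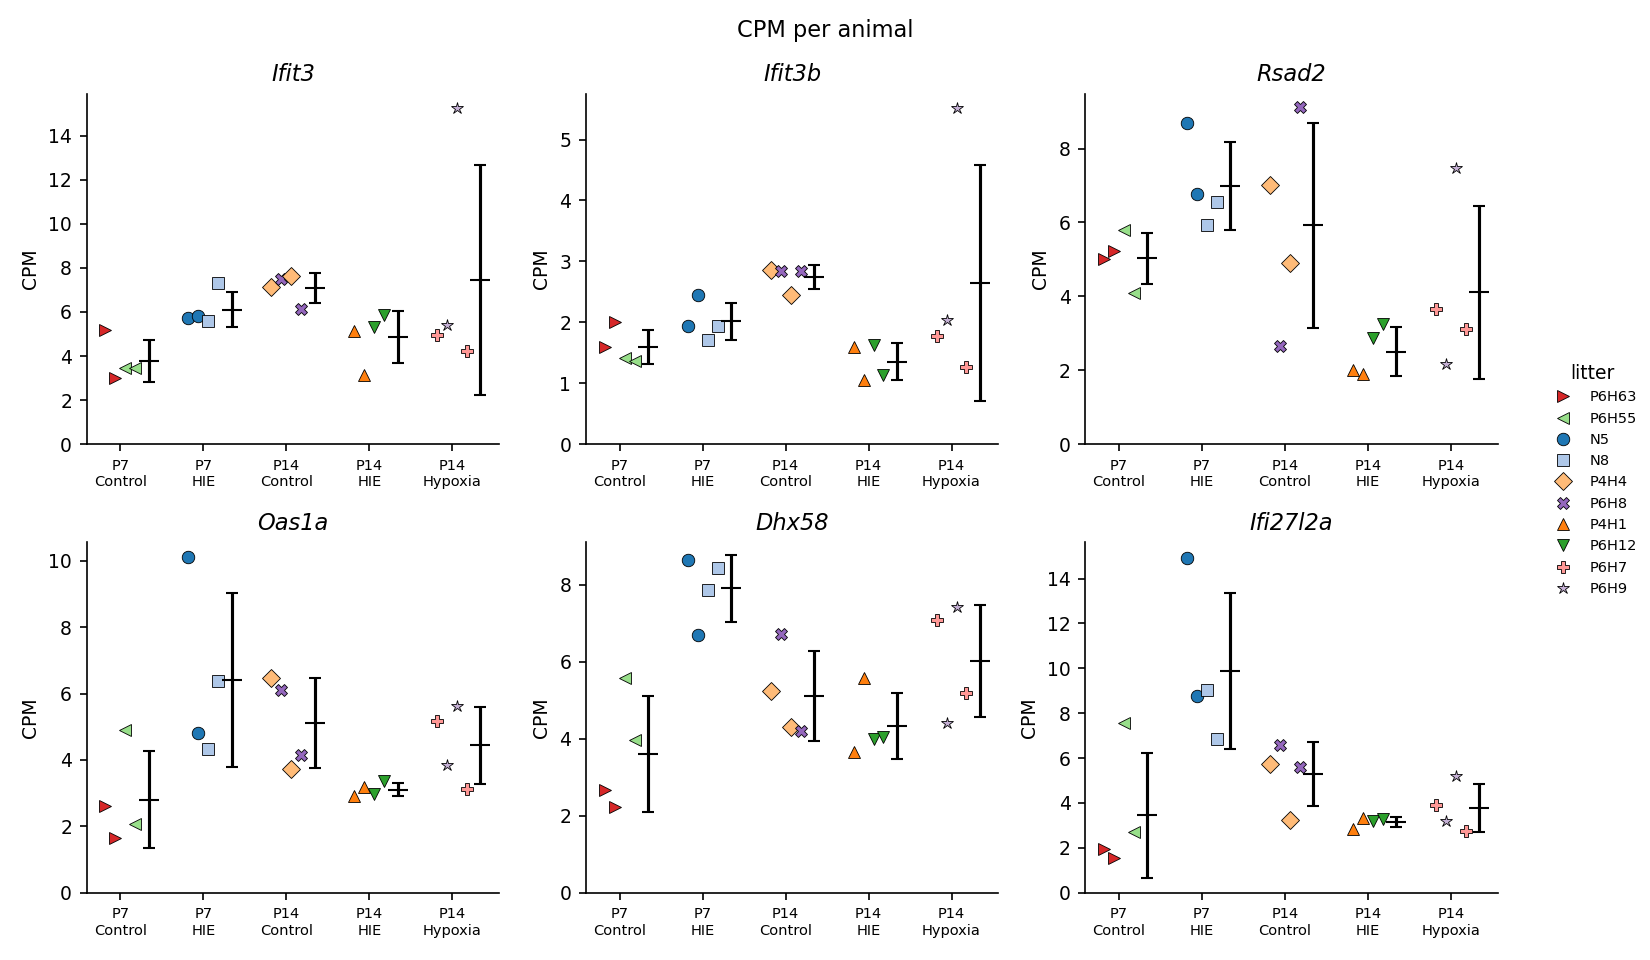
CPM (vertical axis, from 0) of Ifit3, Ifit3b, Rsad2, Oas1a, Dhx58 and Ifi27l2a in each of 20 animals, with the litter given by colour and shape and the mean and SD of 4 animals by the bar. Ifit3b lay between 1.05 and 1.64 CPM in P14 HIE and between 2.45 and 2.86 CPM in P14 controls, and the hypoxia animal P6H9-15F was the highest at 5.52 CPM.

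The lower P14 level was seen within both name prefixes, P4H and P6H. The mean log2 CPM of the members was 2.59 and 2.63 in the P4H HIE animals against 3.10 and 2.91 in the P4H controls, and 2.86 and 2.82 in the P6H HIE animals against 3.28 and 3.13 in the P6H controls. The HIE mean was below the control mean in 27 members within P4H, in 32 within P6H and in 25 within both. With the prefix as a block, 17 members were lower at an unadjusted p under 0.05 and 0 higher, against 8.33% of all genes that were lower, and 0 passed the adjustment. Microglia markers summed to 19347 to 30098 CPM in HIE and 17563 to 23525 CPM in controls, and with their score as a covariate 8 members were lower at an unadjusted p under 0.05, against 4.24% of all genes that were lower. All 6 neuron markers and 3 of 6 markers of the oligodendrocyte lineage were lower in HIE at an unadjusted p under 0.05, the neuron markers with sums of 144 to 221 CPM against 215 to 412 CPM, and none was at 0. The oligodendrocyte lineage markers summed to 631 to 2072 CPM against 1076 to 3935 CPM. Their part in the result was not tested.

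The hypoxia group was set against the same P14 controls as the HIE group. Against the controls, 24 of 36 members had a positive log2 fold change, and the median was 0.07 beside -0.01 over all 20953 genes tested. The quasi-likelihood test called 2 genes (0.00955%) and 0 members, and DESeq2 called 0 members as well. At an unadjusted p under 0.05, 3 members were higher and 0 lower, against 2.97% of all genes that were higher. They were Trim30a (78.2, 64.3, 67.3 and 86.9 CPM in the hypoxia animals, log2 fold change 0.34 ± 0.12), Ifi35 (18.7, 15.4, 11.4 and 14.8 CPM, 0.38 ± 0.15) and Ifih1 (29.2, 30.6, 25.1 and 31.7 CPM, 0.29 ± 0.12). Trim30a alone had no overlap with the controls. All hypoxia animals carried the prefix P6H, and against the 2 P6H controls 23 of 36 members had a lower mean log2 CPM. At an unadjusted p under 0.05, 3 of 6 endothelial markers were higher and 3 of 6 neuron markers lower in hypoxia. Their sums were 676 to 1121 against 449 to 769 CPM, and 147 to 275 against 215 to 412 CPM. Of 7 monocyte and neutrophil markers, 2 were higher and 1 lower, and 1 astrocyte and 1 plasmacytoid dendritic cell marker were lower. Their part in the result was not tested.

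One hypoxia animal, P6H9-15F, had much of the pathway at a high level. Its mean over the members was 3.68 log2 CPM, the highest of the P14 animals, against 3.11, 2.85 and 2.84 in the other 3 of its group, and it held the highest hypoxia value in 29 members. Ifit1 was 3.63, 3.81, 2.87 and 7.997 CPM, Ifit3 4.94, 4.23, 5.39 and 15.3 CPM and Ifit3b 1.78, 1.26, 2.05 and 5.52 CPM in the hypoxia animals, with P6H9-15F the last in each. Mx1 was 3.66, 1.63, 2.099 and 8.52 CPM, Oasl2 6.898, 6.59, 6.696 and 15.3 CPM, Oasl1 0.922, 0.673, 0.611 and 2.33 CPM and Zbp1 0.446, 0.897, 0.771 and 2.54 CPM. In each of these 7 genes the other 3 hypoxia animals lay far below P6H9-15F. Its litter mate P6H9-14M was the lowest of the group in 17 members. Without P6H9-15F, 15 of 36 members had a positive value against the controls, with a median of -0.20, and 7 had an unadjusted p under 0.05, 2 of them higher, against 10.5% of all genes with such a p. The mean of its microglia markers was 9.60 log2 CPM, the lowest of the group, against 10.3, 10.1 and 9.84 in the other 3. The part of this in the result was not tested.

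**Figure D5:**
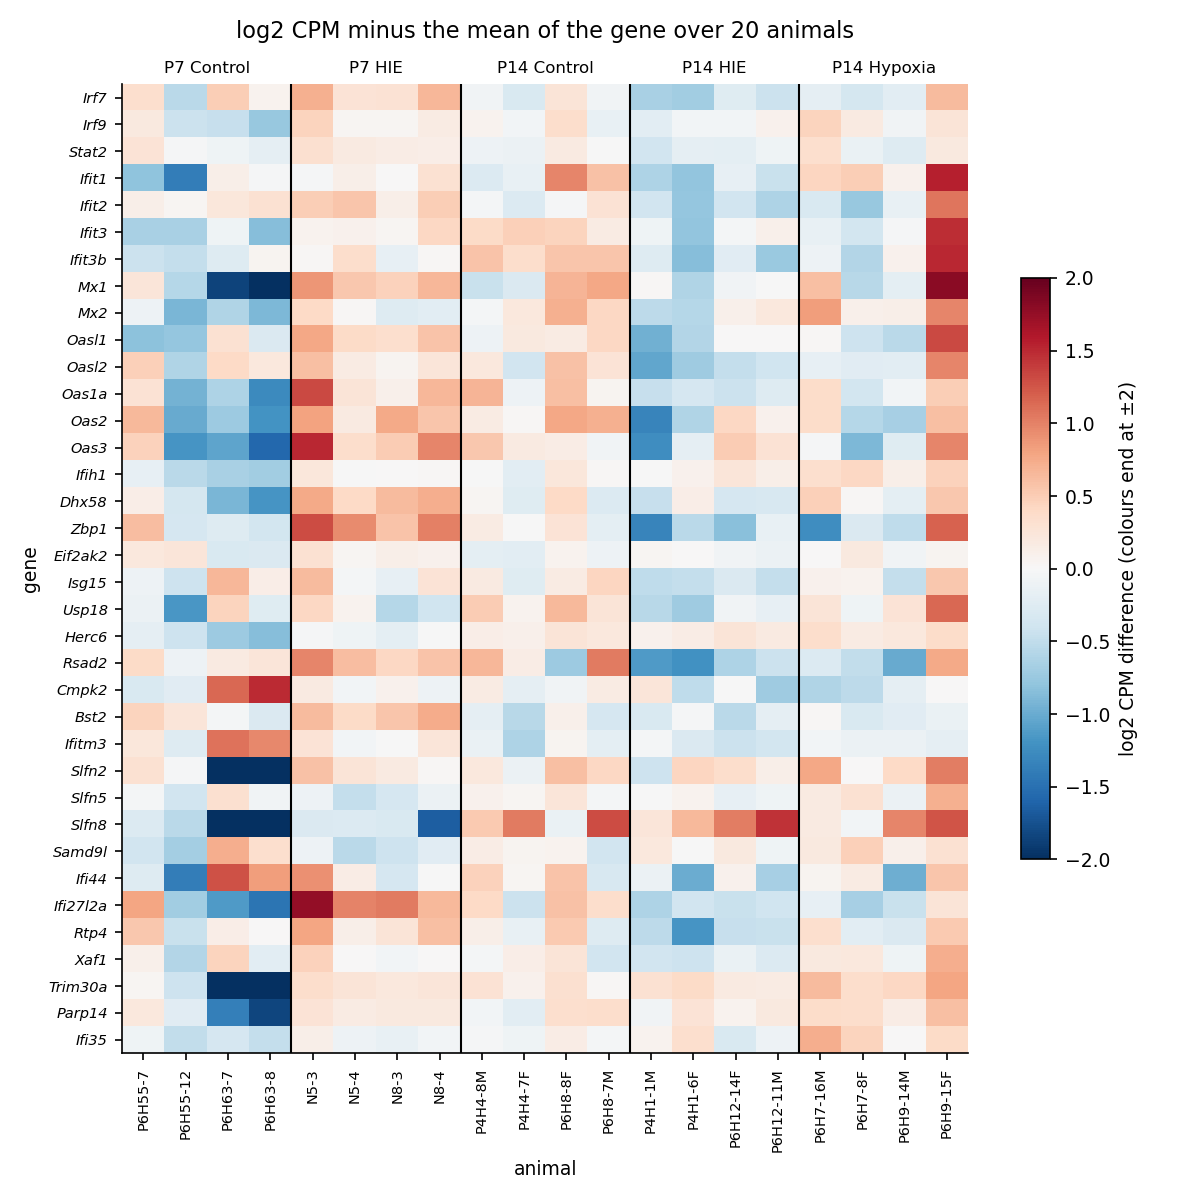
Log2 CPM of the 36 members (rows) in 20 animals (columns, by group and litter), each as the difference from the gene's mean over all animals, with colours ending at 2 units. The P7 HIE columns are mostly above and the P14 HIE columns mostly below the gene means, and the hypoxia animal P6H9-15F and the P6H63 controls stand apart from their groups.

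P6H9-15F was also the highest hypoxia animal in Rsad2, Oas3, Xaf1 and Ifi27l2a, among others. Rsad2 was 3.66, 3.11, 2.18 and 7.48 CPM, Rtp4 9.43, 6.45, 6.14 and 10.7 CPM and Xaf1 6.04, 6.14, 4.97 and 8.79 CPM. Oas1a was 5.17, 3.11, 3.85 and 5.64 CPM, Oas3 0.595, 0.308, 0.505 and 1.23 CPM and Ifi27l2a 3.895, 2.75, 3.22 and 5.21 CPM. Dhx58 was 7.08, 5.19, 4.41 and 7.42 CPM, Herc6 27.2, 23.98, 24.6 and 27.5 CPM and Bst2 11.7, 9.34, 9.91 and 10.6 CPM. These 9 genes overlapped with the P14 controls. Of the abundant members, Irf9 was 54.4, 45.2, 38.2 and 47.8 CPM, Parp14 97.3, 96.6, 83.8 and 115 CPM and Slfn5 58.1, 63.6, 47.2 and 83.99 CPM, which also overlapped with the controls.

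Set directly against hypoxia, the HIE animals had lower values in 34 of 36 members, with a median log2 fold change of -0.45 beside -0.01 over all 20949 genes tested. The quasi-likelihood test called 2 genes (0.00955%) and 0 members, DESeq2 called 0 members, and at an unadjusted p under 0.05 14 members were lower and 0 higher, against 1.84% of all genes that were lower. Ifit1, Rtp4, Xaf1 and Oasl2 had every HIE animal below every hypoxia animal, which was so for 0.988% of all genes. Their log2 fold changes were -1.27 ± 0.33, -0.77 ± 0.25, -0.61 ± 0.21 and -0.85 ± 0.30. Without P6H9-15F, 3 members were lower at an unadjusted p under 0.05, against 1.47% of all genes, and the median was -0.21. All hypoxia animals carried the prefix P6H, and with P6H animals only 4 members were lower at an unadjusted p under 0.05, against 2.13% of all genes. Of the choroid plexus markers, 4 of 5 were higher in HIE than in hypoxia at an unadjusted p under 0.05, with sums of 1809 to 4796 CPM against 849 to 2414 CPM and none at 0. Their part in the result was not tested.

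The difference between the days was tested as the P7 effect of HIE minus its P14 effect, over 16 animals and 24693 genes. The median difference was 0.84 over the members and -0.04 over all genes tested, and 32 of 36 were positive. The quasi-likelihood test called 1 gene (0.00405%) and 0 members, with a lowest adjusted member p of 0.110. At an unadjusted p under 0.05, 21 members had a positive difference and 0 a negative one, against 3.60% of all genes with a positive one. DESeq2 called 9 members, all positive, against 0.486% of all genes. These were Ifit3b (1.37 ± 0.29), Ifit3 (1.24 ± 0.29), Zbp1 (1.77 ± 0.43), Rsad2 (1.72 ± 0.42), Oas1a (1.91 ± 0.47), Ifit2 (0.78 ± 0.20), Ifi27l2a (2.26 ± 0.58), Dhx58 (1.37 ± 0.37) and Oasl1 (1.41 ± 0.43), each as the difference of edgeR's log2 fold changes ± standard error. With the P6H55 litter as the only P7 controls, 34 of 36 differences were positive, 20 of them at an unadjusted p under 0.05, against 8.69% of all genes with such a p in either direction, and 0 members passed the adjustment. With P6H63 alone 26 members passed it, 23 of them positive, but so did 29.6% of all genes. Without the control P6H55-7 15 members passed it, against 4.72% of all genes. The 2 HIE effects come from different tables, and day, table and litter move together in this comparison.

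The differences between days were spread unevenly over the families. The 4 IFIT genes had unadjusted p-values under 0.05 in 4 of 4 differences between days and the 5 OAS genes in 5 of 5. Those differences were 0.78 to 1.41 and 0.95 to 1.91. Of all genes, 3.60% had such a p with a positive difference. Ifit3 and Ifit3b share reads, so their values are not independent. The transcription factors had 3 of 3, the dynamin-like GTPases 2 of 2 and the nucleic acid sensors with the kinase 3 of 4. Isg15, Usp18 and Herc6 had 1 of 3, Rsad2 and Cmpk2 1 of 2 and the other induced genes 2 of 7. The 4 Schlafen and SAMD9 genes had 0 of 4, with a median of 0.18, and both membrane restriction factors, Bst2 and Ifitm3, had 0 of 2. The families were not tested against each other.

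Upstream of these genes, the ligands were near the limit of detection. Of 20 interferon genes listed, among them those of interferon gamma and lambda, 12 had no count in any animal, and 4 exceeded 3 counts in at least 1. The highest counts were those of Ifng, the gene of interferon gamma, with 17 in P6H63-7 and 19 in P6H63-8. Ifnb1, the gene of interferon beta, was above 3 counts in 6 animals and highest in the hypoxia animal P6H9-15F, with 10 counts or 0.306 CPM. The other hypoxia animals had 1, 0 and 4 counts of Ifnb1. The P14 HIE animal P6H12-11M had 8 and the P7 HIE pup N5-4 had 6. In P6H12-11M the mean over the members was 2.82 log2 CPM, below the lowest P14 control at 2.91.

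Receptor and kinase genes were abundant. Ifnar1 was 162, 166, 175 and 172 CPM in P7 HIE and 168, 136, 166 and 149.6 CPM in P7 controls, with a log2 fold change of 0.12 ± 0.10. Ifnar2 was 76.4, 82.7, 88.9 and 94.97 CPM and 79.1, 62.8, 45.1 and 40.5 CPM, and its log2 fold change was 0.58 ± 0.21. Jak1 and Tyk2 had P7 log2 fold changes of 0.42 ± 0.19 and 0.71 ± 0.29, with edgeR adjusted p-values of 0.194 and 0.166 and DESeq2 adjusted p-values of 0.125 and 0.0881. Both were lowest in the P6H63 controls. Unscaled counts of Jak1 were 12146 and 12278 in P6H63, 16960 and 17790 in P6H55 and 17081 to 19231 in HIE. Those of Tyk2 were 2697 and 2260 in P6H63, 4821 and 4304 in P6H55 and 5091 to 5366 in HIE. At P14 the same 4 genes lay between -0.01 and 0.21 in HIE against control, and none had an unadjusted p under 0.05.

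Of the 63 other pathway genes listed, 43 passed the filter at P7. Both control litters entered the P7 fit, P6H63 with its low microglia markers among them. A positive log2 fold change was found in 39 of the 43 genes, against 43.5% of all 22517 genes tested. The quasi-likelihood test called 1, Ly6e. It called 40 against P6H63 alone, where 58.5% of all genes were called, and 0 against P6H55 alone. Ly6e, a membrane protein that many interferons induce, was 410.3, 481, 404 and 457 CPM in HIE and 229, 148, 179.6 and 179 CPM in controls (log2 fold change 1.24 ± 0.15, adjusted p 0.0483). This call was lost without any 1 HIE pup, without any control pup other than P6H55-7, against P6H55 alone and with the sex label or the microglia score as a covariate. In P14 HIE Ly6e was 369.9, 426, 189 and 401 CPM against 212, 197, 203 and 253 CPM in controls (log2 fold change 0.66 ± 0.22, adjusted p 0.326). Unadjusted, 13 of the 43 were higher and 1, Ifnlr1, lower at P7 with p under 0.05, against 7.89% of all genes that were higher. At P14 the numbers were 1 higher and 1 lower in HIE and 4 higher and 3 lower in hypoxia, with 0 called. Of all genes, 9.87% in HIE and 9.53% in hypoxia had such a p in either direction. The chemokine Cxcl10 was 51.9, 40.2, 31.2 and 24.1 CPM in P7 HIE and 23.4, 27.4, 4.17 and 2.62 CPM in P7 controls, where the P6H63 litter was far lower (log2 fold change 1.34 ± 0.72, adjusted p 0.246). In the P14 groups it was 3.29, 2.11, 3.19 and 8.26 CPM in controls, 3.17, 3.25, 2.64 and 3.21 CPM in HIE and 3.51, 1.49, 3.11 and 4.11 CPM in hypoxia.

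Per length, the members spanned a wide range. The mean over the 5 groups was 23.2 CPM per kb of canonical transcript for Ifitm3, a membrane protein that blocks viral entry, and it was 14.9 for Bst2, 14.8 for Trim30a and 14.7 for Irf9. The last 3 of these do not differ beyond their spread over animals. The lowest levels were 0.149 CPM per kb for Oas3, 0.403 for Ifit1 and 0.445 for Oasl1. These values depend on the transcript chosen. The canonical transcript of Ifit1 has 7421 bases and that of Ifit3b 2042, while by CPM Ifit1 was the higher, at 2.99 against 2.07. Among the genes that DESeq2 called between days, Ifi27l2a ranked 6, Ifit3 18, Ifit2 22, Oas1a 23 and Dhx58 24 of 36 by this level. Rsad2 ranked 28, Ifit3b 31, Zbp1 33 and Oasl1 34.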

How the data were processed

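Per the labels and the study's methods, CD11b+ cells were enriched from dissociated brains and stranded total RNA libraries depleted of ribosomal RNA were sequenced. STAR placed the reads on GRCm39, and the authors deposited expected counts per gene from RSEM, not scaled for library size, in 1 table for each day. In each library 84.2 to 88.0% of values were whole, and all were rounded. Of 56691 identifiers, 56017 matched GENCODE M39, whose symbols, positions and sequence windows were used, and 674 did not. RSEM divides reads among near-identical genes.

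Groups came from the labels. The 22 libraries were summed to 20 animals, since 2 P14 HIE animals had 2 libraries each. The members and lists were chosen with earlier results of these data known. The main test was edgeR 4.0.16 (R 4.3.3) quasi-likelihood with TMM, filterByExpr by group and Benjamini-Hochberg adjustment over all genes tested, fitted on the animals of the 2 groups compared. The difference between days was fitted over 4 groups. DESeq2 1.42.0 ran on the same genes, and its missing adjusted p-values were kept as missing. Log2 CPM used a prior count of 2. A mean over members is a description with no test. Unadjusted p-values are from the quasi-likelihood test unless another is named. Animals of 1 litter share it, and p-values measure the spread between these animals. The floor of 3 counts covers counting error only, while standard errors and SDs describe the spread between animals. The tests of 2 groups were first run on simulated counts, with larger changes than the members showed in the main fits and no litter set apart. Power at the sizes reported was not examined.

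Members with a value for each animal were those passing the adjusted test (none), the 12 with the smallest p at P7, the 3 with the smallest p in each P14 comparison and the 4 with the highest mean CPM. Usp18, Isg15 and other members named by a count, and pathway genes other than those the rule lists, were named after their values were seen. One pathway gene of the rule is not reported here. Alternatives covered normalization, filter, test, covariates, litters, prefixes, repeated libraries and leaving out each animal. The separate tests of the difference between days by DESeq2, by litter and without each animal were added after seeing the data.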

Additional observations from a re-analysis of the deposited data

Results flagged for a closer look

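Among 115 sets of 4 animals (22 members and the mean over the members, in 5 groups), 8 had 1 animal far from the other 3 by Dixon's test on log2 CPM, where chance flags about 1 in 20. In the P7 HIE group the highest animal stood off in Ifih1 (N5-3, 4.76), Xaf1 (N5-3, 2.87) and Ifit3 (N8-4, 2.88). Among the P7 controls P6H55-7 stood off in Zbp1 at 0.82. In the P14 groups the control P4H4-7F was lowest in Ifit3b at 1.32, the HIE animal P4H1-6F was lowest in Mx1 at 0.68 and in Rtp4 at 1.73, and the hypoxia animal P6H9-15F was highest in Oasl2 at 3.94. Values are log2 CPM.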

How the results depend on the processing

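Against the P7 counts of 0 members and 1 other pathway gene called, DESeq2 called 10 and 9, the exact test 2 and 2, the likelihood ratio test 2 and 2, P6H63 controls alone 23 and 40 (26 and 38 with DESeq2) and P6H55 controls alone 0 and 0 (5 and 9 with DESeq2). The pathway count was also 0 with library size scaling, the sex label, the microglia score or male labels only. Leaving out 1 animal gave 0 to 15 members and 0 to 12 pathway genes, the upper values without P6H55-7, where 24.2% of all genes were called. For P14 HIE against control DESeq2 called 6 members and the exact and likelihood ratio tests 1 each, and leaving out any animal called 0. For the difference between days DESeq2 called 9, P6H63 controls alone 26 (29.6% of all genes called), and leaving out 1 animal gave 0 to 15, the upper value without P6H55-7 (4.72% of all genes called). The hypoxia median ran from -0.20 (without P6H9-15F) to 0.16. Parp14 in P14 HIE ran from -0.13 to 0.048 on leaving out 1 animal and was 0.20 within P4H. Trim30a ran from -0.00409 to 0.10, and was -0.00857 with the microglia score and -0.028 within P6H. The cause of these changes was not tested. No paired analysis was possible because replicate numbers were given in accession order and mark no shared litter.

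Single libraries were shallower at P14 than at P7, each litter held 1 treatment, and a P7 control litter had 2 pups, so litter and treatment cannot be told apart. Fits of the difference between days other than the main one were chosen after seeing the data.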
